A study of Danio rerio with 52 samples.

Results

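The 10 zebrafish genes described here are known for their work in pigment cells: gch2, xdh, kita, csf1ra, mitfa, pax7a, dct, tyr, pmela and trpm1b. They were chosen by name, with the high levels of pteridine and Kit and Csf1 receptor genes in the GFP+ hair cell sort already known. All 10 were measured, out of 19260 genes tested on 52 Affymetrix arrays, and each is represented by the probe set with the highest mean signal. Among probe sets listed with 1 gene symbol, 1 exists for each gene other than dct. Because the values in the hair cell sort took part in the choice, those differences are given here as descriptions with no test. Differences among the other populations, and after copper, were tested. In these latter contrasts a count of genes is set beside the percentage of all 19260 genes that passed the same test.

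The arrays measured RNA of cells sorted by flow cytometry from the skins of zebrafish larvae at 4 days of age. In the alpl:mCherry;pou4f3:GFP line GFP marks hair cells, while mCherry marks mantle cells, the outer cells of the lateral line's sense organs. In the alpl:mCherry:ET20 line every mantle cell carries mCherry and most have GFP as well. From untreated larvae came 6 arrays of non-fluorescent cells, 5 of mCherry+ mantle cells, 4 of mCherry+/GFP+ mantle cells from the ET20 line, and 2 of GFP+ hair cells. Other larvae spent 1 h in 5 µM copper sulfate, which kills hair cells. Their non-fluorescent cells gave 7 arrays at 1 h after copper and 4 arrays at each of 3 h, 5 h and 11 h, and their mCherry+ mantle cells gave 4 arrays at each of these times. Each sample was made from about 50 skins, and 1 ng of RNA was amplified. The GFP+ hair cells and the mCherry+/GFP+ cells were pooled from several sorts, which averages over sorts before the spread between arrays is seen. Gates used light scatter and the brightness of mCherry or GFP, so a sorted population is what fell in a gate. The labels do not say whether replicates come from separate clutches, so errors and p-values measure the spread between these samples. Precision is limited by how many arrays a group has, most of all in the hair cell sort.

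Values are log2 levels after the medians of the arrays were set equal, with 4.84 as the common median of the tested genes. A level is read within 1 gene only, since probe sets differ in brightness. The hair cell sort carried the markers of its label. Of 28 measured hair cell genes other than the 10 pigment genes, 25 were higher than in non-fluorescent cells, and their median difference was 4.16 against 0.04 for all tested genes (limma, Benjamini-Hochberg adjusted p below 0.05). Among them, pou4f3, the transcription factor whose promoter drives the GFP, stood 5.70 ± 0.21 (SE) higher, with an adjusted p in limma of 2.25e-13. The transcription factor gene atoh1a stood 3.07 ± 0.26 higher in the same fit (adjusted p = 1.78e-08). The cilium gene tekt3 (6.51 ± 0.45) and atp2b2, a calcium pump of hair bundles (6.38 ± 0.18), were further examples. Of 15 connective tissue genes all 15 were lower in the hair cell sort than in non-fluorescent cells. Among all tested genes 17.8% were higher and 18% lower in this comparison. Against mCherry+ cells all 15 were lower too, and against mCherry+/GFP+ cells 13 were lower and 1 higher.

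Zebrafish skin holds several kinds of pigment cell that arise from the neural crest. Xanthophores make yellow pteridines from GTP and take up carotenoids, melanophores make black melanin in melanosomes, and iridophores stack reflecting crystals of purines. The receptor tyrosine kinase Kita supports the migration and survival of melanophores, and Csf1ra supports xanthophores and macrophages. Mitfa specifies melanophores, and Pax7 proteins act in xanthophore development.

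The gene of pteridine synthesis gch2, which encodes the GTP cyclohydrolase that opens the pathway in xanthophores, had levels of 11.32 and 11.45 in the 2 hair cell arrays. In the 6 non-fluorescent arrays its lowest, median and highest levels were 2.98, 3.30 and 3.55. The mCherry+ mantle arrays read 3.61, 3.52, 4.22, 3.44 and 4.00, and the mCherry+/GFP+ arrays 3.94, 3.13, 3.09 and 3.51. Both hair cell arrays were thus far above all other arrays, with no overlap. The difference from non-fluorescent cells was 8.11 ± 0.24 (SE of the fit), a 276-fold difference, and it ranked as number 1 of the 19260 genes. Against mCherry+ mantle cells the difference was 7.63 ± 0.25 and ranked number 2, and against mCherry+/GFP+ cells it was 7.97 ± 0.26 and ranked number 1. In the copper-treated arrays of other cells gch2 stayed between 2.49 and 4.13. In bulk RNA, fewer cells of a type and less RNA per cell cannot be told apart, and neither can transcripts of hair cells and of other cells within the same gate.

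The gene xdh encodes xanthine dehydrogenase, an enzyme of purine breakdown that xanthophores also use to make yellow pteridines. Its levels in the hair cell arrays were 8.16 and 8.00. The non-fluorescent arrays had a lowest, median and highest level of 3.30, 3.58 and 3.67. The mCherry+ arrays read 3.68, 3.79, 3.80, 3.81 and 3.46, and the mCherry+/GFP+ arrays 4.09, 3.28, 3.16 and 3.48. As with gch2, no other array came near the hair cell arrays. The difference from non-fluorescent cells was 4.56 ± 0.21, or 23.6-fold, with rank 152 of 19260.

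**Figure D1:**
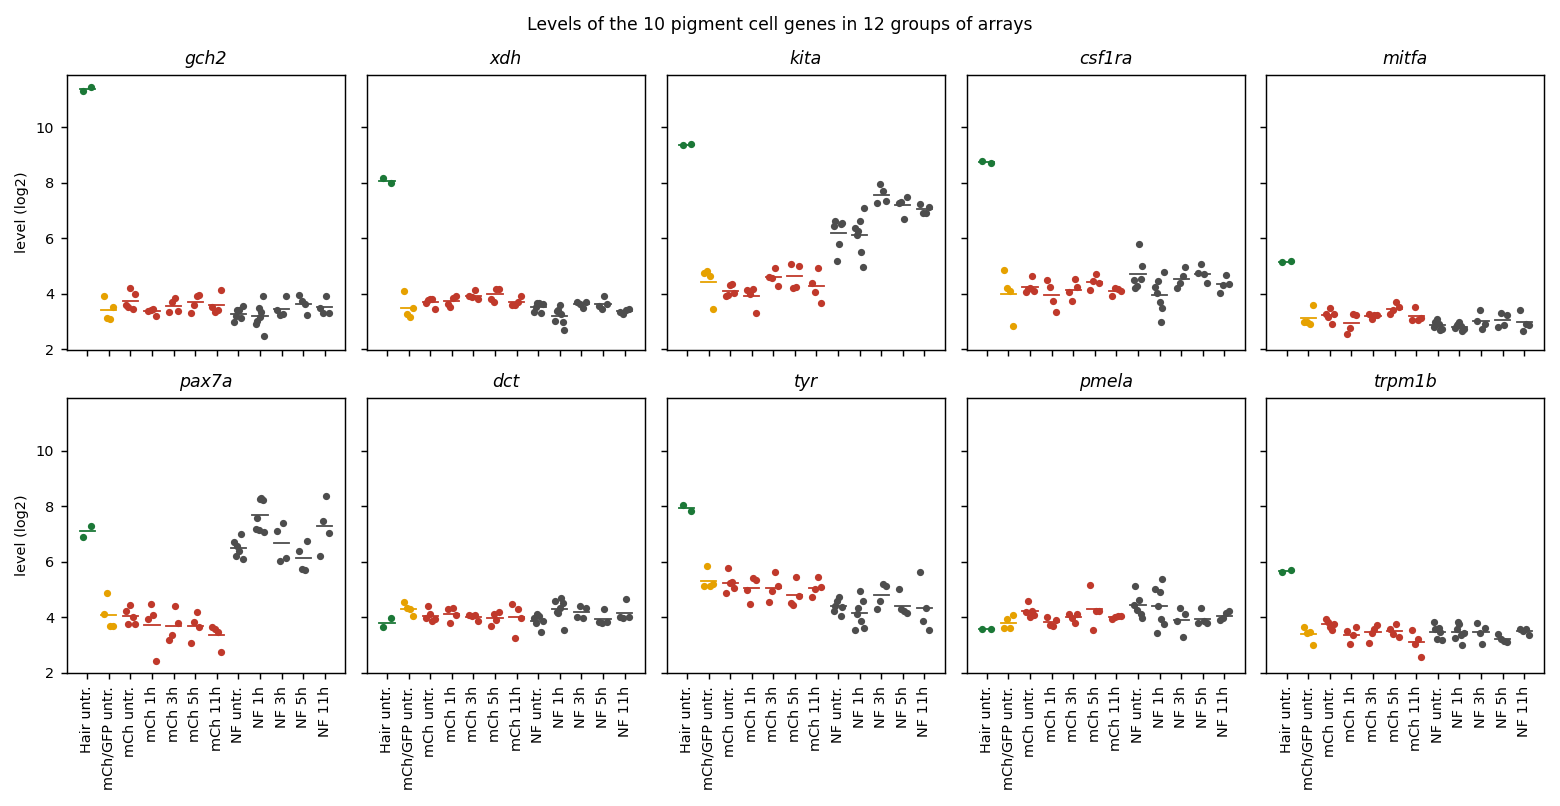
Level (log2, array medians set equal) of the 10 pigment cell genes in each of the 12 groups; points are arrays, bars are group means, and untr. means untreated. Both hair cell arrays stand above all others for gch2, xdh, kita, csf1ra, mitfa, tyr and trpm1b, while dct and pax7a overlap non-fluorescent cells and both hair cell arrays of pmela, 3.57 and 3.59, lie just below all other untreated arrays.

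The receptor gene kita had levels of 9.35 and 9.40 in the hair cell sort. In untreated non-fluorescent cells its lowest, median and highest levels were 5.20, 6.48 and 6.61. The mCherry+ arrays read 3.92, 3.96, 4.33, 4.35 and 4.02, and the mCherry+/GFP+ arrays 4.74, 4.84, 4.63 and 3.46. The order of the untreated groups was therefore hair cell sort, non-fluorescent, then both mantle populations, whose arrays overlap. The hair cell sort stood 3.19 ± 0.36 above non-fluorescent cells and 5.26 ± 0.37 above mCherry+ cells. The second Kit receptor gene, kitb, not one of the 10, was 4.95 ± 0.24 higher in the hair cell sort than in non-fluorescent cells. High Kit receptor genes in this sort were already known, so no test is given for kitb either. The mean of kitb was 8.62 in the 2 hair cell arrays and between 3.67 and 3.92 in the other untreated groups.

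The receptor gene csf1ra had levels of 8.78 and 8.72 in the hair cell sort. In untreated non-fluorescent cells the lowest, median and highest levels were 4.21, 4.53 and 5.80. The mCherry+ arrays read 4.07, 4.18, 4.22, 4.66 and 4.11, and the mCherry+/GFP+ arrays 4.86, 4.20, 4.09 and 2.83. These 3 other populations overlap one another, and the hair cell sort lies 4.03 ± 0.41 above non-fluorescent cells, or 16.3-fold. The second Csf1 receptor gene, csf1rb, did not share this level: its means were 3.70 in the hair cell sort and 4.28 ± 0.73 (SD, n = 6) in non-fluorescent cells. That difference was -0.57 ± 0.45. No p-value is given, since csf1rb was named after its value was seen.

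Macrophages also carry Csf1ra, so 13 measured macrophage and neutrophil genes were set beside it. None of the 13 was higher and 9 were lower in the hair cell sort than in non-fluorescent cells, with a median difference of -1.45 against 0.04 for all genes. Across all tested genes, 17.8% were higher and 18% lower in this comparison. The differences were -5.81 ± 0.97 for the lysozyme gene lyz, -2.65 ± 0.76 for the myeloperoxidase gene mpx and -1.88 ± 0.68 for coro1a, a leukocyte coronin. For mpeg1.1, a defining macrophage gene, the change was -1.47 ± 0.47 (limma, adjusted p = 0.0189), with a level of 3.02 in the hair cell sort. Against mCherry+ mantle cells 4 of the 13 were lower (median -0.78), and against mCherry+/GFP+ cells none was called (median -0.26). Of all 19260 genes 3802 and 3537 were lower in these 2 comparisons. The mean of the 13 genes was 3.70 in both hair cell arrays and ran from 4.50 to 6.22 in non-fluorescent cells, from 4.17 to 4.92 in mCherry+ cells and from 3.49 to 4.49 in mCherry+/GFP+ cells. The count of 9 fell to 2 without replicate 1 of the hair cell arrays, and also to 2 without replicate 2. In non-fluorescent cells the array with the highest csf1ra level, replicate 4 at 5.80, also had the highest mean of the macrophage genes, 6.22.

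**Figure D2:**
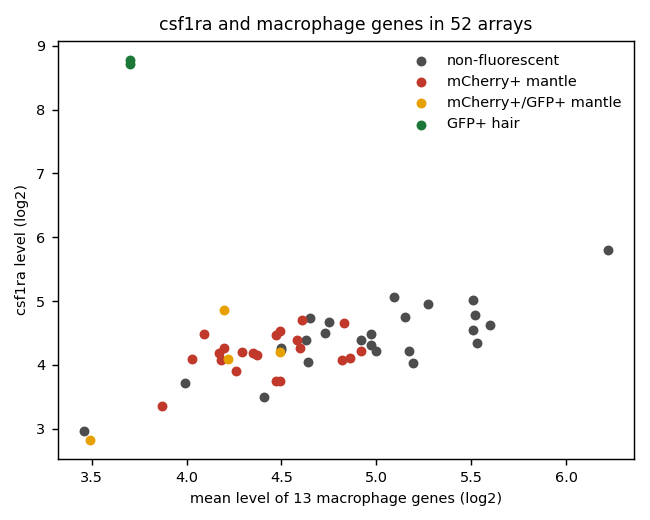
Level of csf1ra (log2) against the mean level of 13 macrophage and neutrophil genes (log2) in 52 arrays, coloured by sorted population. The 2 hair cell arrays have csf1ra near 8.7 at a macrophage mean of 3.70, apart from all other arrays.

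Among genes of melanophores, mitfa, which encodes the transcription factor that specifies them, had levels of 5.15 and 5.17 in the hair cell sort. The non-fluorescent arrays had a lowest, median and highest level of 2.68, 2.86 and 3.10, the mCherry+ arrays lay between 2.90 and 3.48, and the mCherry+/GFP+ arrays between 2.91 and 3.60. The difference from non-fluorescent cells was 2.29 ± 0.20, or 4.88-fold, with no overlap with any untreated array. The gene tyr encodes tyrosinase, the enzyme that starts melanin synthesis, and its levels in the hair cell sort were 8.03 and 7.82. The non-fluorescent arrays read from 4.04 to 4.71 with a median of 4.38, the mCherry+ arrays from 4.88 to 5.78 and the mCherry+/GFP+ arrays from 5.11 to 5.83. The hair cell arrays were above all of these, by 3.54 ± 0.24 over non-fluorescent cells and by 2.69 ± 0.25 over mCherry+ cells. The cation channel gene trpm1b read 5.62 and 5.70 in the hair cell sort, against 3.00 to 3.93 in the other untreated arrays, a difference of 2.18 ± 0.20 from non-fluorescent cells.

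The other 2 melanin genes did not share these levels. The gene dct encodes dopachrome tautomerase, the step after tyrosinase, and read 3.65 and 3.96 in the hair cell sort against 3.45 to 4.12 in non-fluorescent cells (median 3.91). The groups overlap and the difference was -0.06 ± 0.20. The other dct probe set gave means of 3.44 in the hair cell sort and 3.64 in non-fluorescent cells. The melanosome fibril gene pmela read 3.57 and 3.59 in the hair cell sort, below the lowest non-fluorescent level of 3.96 (median 4.35, highest 5.12). The difference of the means was -0.84 ± 0.25. The lowest mCherry+/GFP+ array, at 3.60, was almost level with the hair cell arrays.

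The transcription factor gene pax7a was high in 2 populations. Its levels were 6.90 and 7.30 in the hair cell sort. In untreated non-fluorescent cells they were 6.71, 6.19, 6.58, 6.40, 7.01 and 6.08. In the mCherry+ arrays they were 4.24, 3.77, 4.45, 4.01 and 3.76, and in the mCherry+/GFP+ arrays 4.10, 4.86, 3.70 and 3.67. The hair cell sort overlapped non-fluorescent cells, from which its mean differed by 0.60 ± 0.30, and stood 3.05 ± 0.30 above mCherry+ mantle cells. For its paralogue pax7b no level is given, because the probe set listed for it is listed for pax7a as well and was left out.

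In both hair cell arrays, 7 of the 10 genes were above all 15 other untreated arrays. The same held for 2272 of the 19260 tested genes (11.8%), and 2387 (12.4%) were below all others. These shares only describe the data, since levels in the hair cell sort took part in choosing the genes. The hair cell arrays resembled each other: the SD of their difference over genes was 0.308, and pairs within the other untreated groups had 0.245 to 0.728.

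Other genes of these pathways, none of them among the 10, were tested between the hair cell sort and non-fluorescent cells. Their lists were written with earlier results known, among them the high pteridine and Kit receptor genes, so calls here only describe the data. Across all tested genes, 17.8% were higher and 18% lower. Of 13 measured genes of xanthophores and pteridine synthesis, 6 were higher, 1 was lower and 6 did not pass the test, with a median difference of 0.44 against 0.04 for all genes. The sugar transporter genes slc2a15a and slc2a15b, of which the latter is needed for xanthophore pigment in medaka, were 6.80 ± 0.19 and 5.65 ± 0.27 higher. The enzyme genes that follow GTP cyclohydrolase, pts (6-pyruvoyl-tetrahydropterin synthase) and sprb (a sepiapterin reductase), were 4.85 ± 0.39 and 4.21 ± 0.20 higher. The level of pts was 10.80 in the hair cell sort and 5.95 ± 0.71 (SD, n = 6) in non-fluorescent cells. The carotenoid uptake gene scarb1 was also higher, by 2.57 ± 0.17. No p-value is given for these genes, since high pteridine genes in this sort were already known and scarb1 was named after its value was seen. The copies gch1 (-0.62 ± 0.44) and spra (-0.72 ± 0.41) were also named after their values were seen and get no p-value. The aldehyde oxidase gene aox6 was lower (-1.08 ± 0.35). Untreated mCherry+ mantle cells also had 7 of the 13 xanthophore genes higher than non-fluorescent cells and 0 lower, with a median of 0.79. In that comparison 24.2% of all genes were higher and 12.7% lower, with a median of 0.17. Having higher genes in this list was thus not particular to the hair cell sort, though these counts do not show whether the same genes were higher. For 5 of the 13, both hair cell arrays were above all 15 other untreated arrays, and for 2 they were below. Among all genes these shares were 11.8% and 12.4%.

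Purines are the raw material of pteridines and of iridophore crystals. Of 13 genes of purine synthesis, 5 were higher and 1 lower, with a median of 0.40. The genes pfas (2.90 ± 0.21) and atic (1.84 ± 0.30), steps on the way to IMP, and impdh1b (2.41 ± 0.27) and gmps (1.30 ± 0.20), the steps from IMP to GMP, were among those higher. A further IMP dehydrogenase gene, impdh2, was lower (-1.75 ± 0.36).

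Of 18 genes of melanophores and melanin, 12 were higher and 1 lower, with a median of 1.95 against 0.04 for all genes. The small GTPase genes rab38a (5.42 ± 0.27) and rab38b (3.97 ± 0.18), which serve melanosome formation, and mlpha, the melanosome adaptor melanophilin (4.39 ± 0.15), led the list with the cystine transporter gene slc7a11 (4.27 ± 0.32). The level of rab38a was 8.96 in both hair cell arrays and 3.54 ± 0.37 (SD, n = 6) in non-fluorescent cells. The melanosome genes tyrp1b, oca2, slc24a5 and pmelb did not share this direction. Of these tyrp1b was lower (-0.95 ± 0.23, limma adjusted p = 0.003). The other 3, named after their values were seen, did not pass the test.

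Of 13 iridophore genes, 2 were higher and 5 lower, with a median of -0.24. The endothelin receptor gene ednrba stood 5.53 ± 0.22 higher, and pnp4a, a purine nucleoside phosphorylase of iridophores, 1.99 ± 0.33 higher. The lower genes included alx4a (-2.67 ± 0.32), ltk, the receptor that specifies iridophores (-1.64 ± 0.31), and ednraa (-1.31 ± 0.32). The count of 7 was 4 without hair cell replicate 2. Of 15 genes of the neural crest and pigment progenitors, 3 were higher and 4 lower, with a median of -0.51, beside 17.8% and 18% of all genes. Those higher were tfap2e (2.03 ± 0.23), foxd3 (0.90 ± 0.25) and sox10 (0.84 ± 0.24), all transcription factors. The transcription factor genes twist1a (-3.99 ± 0.34), dlx2a (-1.84 ± 0.62) and snai1b (-1.43 ± 0.27) were lower. The count of 7 was 3 without hair cell replicate 1 and 4 without replicate 2. For other cell types that skin could hold, 4 of 16 neuron genes were higher and 2 lower, 1 of 9 Schwann cell genes was higher and 6 lower, and of 16 keratinocyte genes 10 were lower. The neuron counts were near the shares of 17.8% and 18% for all genes. Against mCherry+ mantle cells the hair cell sort had 7 keratinocyte genes higher and 3 lower (median 1.15), and 4 Schwann cell genes higher and 2 lower (median 0.59). Against mCherry+/GFP+ cells these were 5 higher and 3 lower (median 0.20), and 2 higher and 1 lower (median 0.20). Of the 15 neural crest genes 4 were higher and 8 lower in the hair cell sort than in either mantle population (medians -0.96 and -0.75). For xanthophore genes the higher and lower counts were 7 and 5 against mCherry+ cells, and 6 and 4 against mCherry+/GFP+ cells. In the same order they were 10 and 0, then 6 and 0, for purine genes. For melanophore genes they were 11 and 3, then 11 and 1, and for iridophore genes 2 and 4, then 2 and 2. Of all 19260 genes, 3157 were higher and 3802 lower against mCherry+ cells, and 3155 and 3537 against mCherry+/GFP+ cells. Against non-fluorescent cells, the neuron genes that were higher included the transcription factors pou4f1 (4.87 ± 0.21) and isl1a (2.60 ± 0.38), while elavl3 (-2.46 ± 0.64) was lower. The myelin gene mbpa (-3.48 ± 0.54), the keratin gene krt97 (-3.98 ± 0.67) and the connective tissue gene prrx1a (-5.35 ± 0.31) were lower too.

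**Figure D3:**
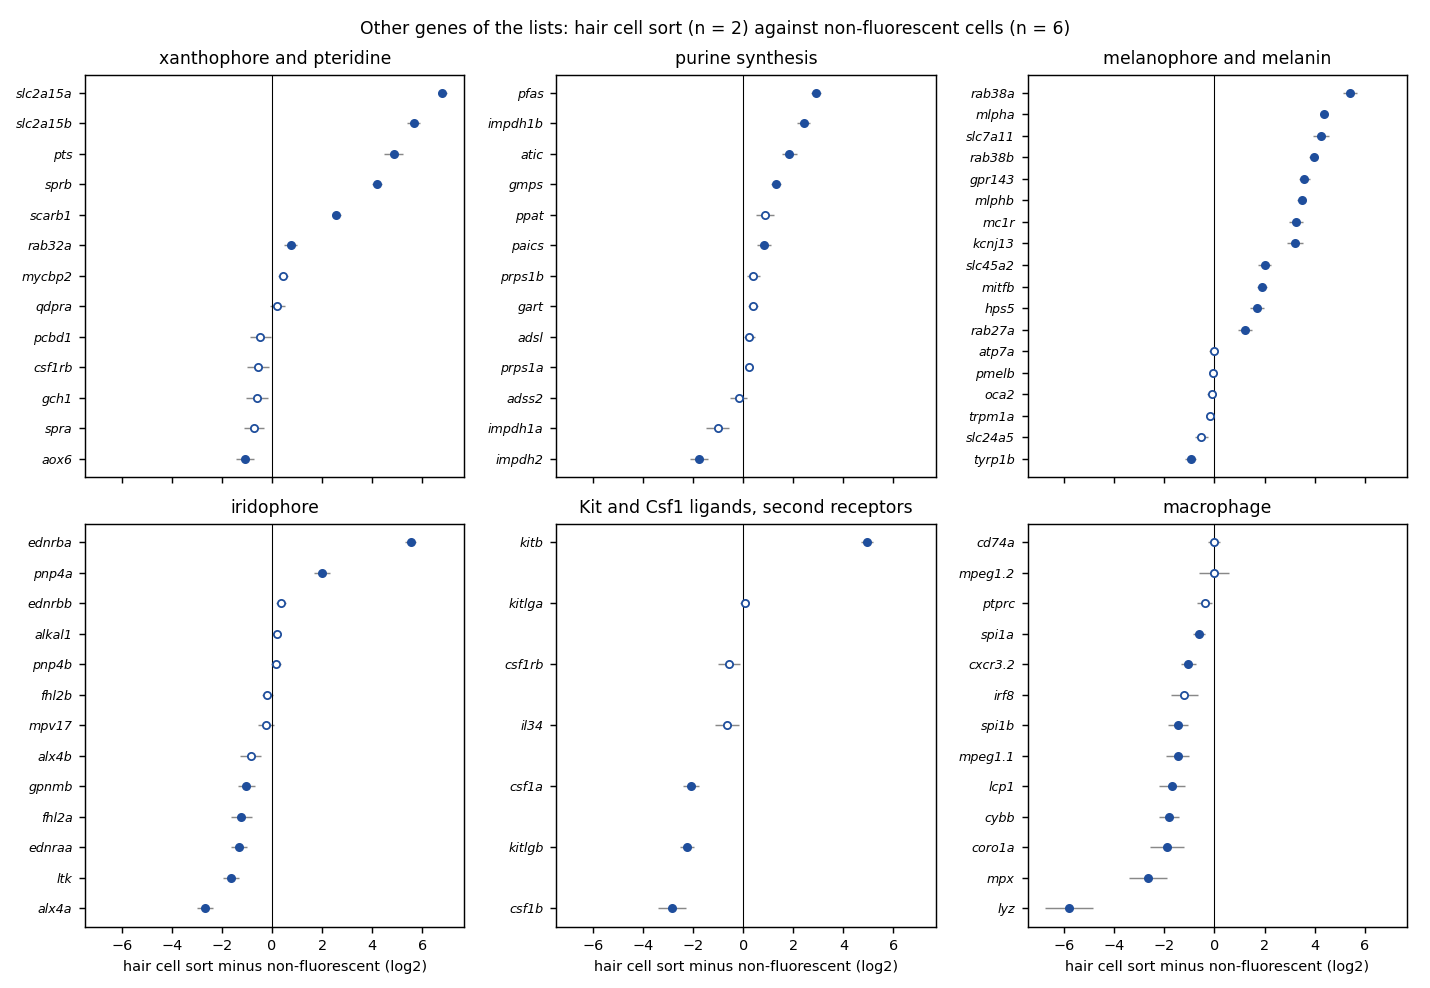
Difference in log2 level, hair cell sort (n = 2) minus non-fluorescent cells (n = 6), for genes of 6 lists that are not among the 10; bars are the SE of the fit, and filled points passed an adjusted p below 0.05 in limma. The fill only describes the data, since the lists were written with earlier results known. No test is claimed for kitb, slc2a15a, slc2a15b, pts, sprb or scarb1. In the xanthophore panel slc2a15a stands at 6.80 and aox6 at -1.08, and in the melanophore panel rab38a stands at 5.42 and tyrp1b at -0.95.

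Among the cells other than the hair cell sort, the clearest differences were lower kita and pax7a in mantle cells. Between mCherry+ mantle and non-fluorescent cells, 2 of the 10 genes were higher and 2 lower in limma (adjusted p below 0.05), beside 24.2% and 12.7% of all genes. On the deposited scale the split of all calls moved from 65.6% to 46.8% higher, with a shift of -0.15 in the median of all genes. With the array values given above, kita (-2.07 ± 0.27, limma adjusted p = 6.94e-06) and pax7a (-2.45 ± 0.22, adjusted p = 8.77e-08) were lower. Neither gene's arrays overlapped between the populations. For tyr the change was 0.85 ± 0.18 (adjusted p = 0.00103), again with no overlap. The levels of gch2 differed by 0.48 ± 0.18 with overlap (adjusted p = 0.0454). This call was lost on the deposited scale (0.33, adjusted p = 0.21), and without non-fluorescent replicate 1, 2 or 5, mCherry+ replicate 1, 3 or 5, mCherry+/GFP+ replicate 4 or either hair cell array, in limma with adjusted p of 0.0503 to 0.131. The mitfa difference, not called, was called without non-fluorescent replicate 3, mCherry+ replicate 4 or mCherry+/GFP+ replicate 4, at 0.35 to 0.43. Of the macrophage genes 5 of 13 were lower in mCherry+ cells and none higher, and their part in these differences was not tested.

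Between mCherry+/GFP+ mantle and non-fluorescent cells, 2 genes were higher and 3 lower, beside 17.8% and 13.6% of all genes. The split of all calls was 56.7% higher, and 44.6% on the deposited scale with a shift of -0.11. Here too kita (-1.77 ± 0.29, limma adjusted p = 0.000105) and pax7a (-2.41 ± 0.23, adjusted p = 3.18e-07) were lower, and tyr was higher (0.93 ± 0.19, adjusted p = 0.00106), each without overlap. Both comparisons use the same 6 non-fluorescent arrays. For pmela the change was -0.62 ± 0.20 (limma adjusted p = 0.0227), with overlapping arrays. It was lost without mCherry+/GFP+ replicate 1 or 3, each at -0.55, with adjusted p of 0.0689 and 0.065. For dct it was 0.43 ± 0.16 (limma adjusted p = 0.0449), with overlap. When the 2 dct probe sets were averaged, this became 0.03 with an adjusted p of 0.916. Leaving out mCherry+/GFP+ replicate 1, 2 or 3, mCherry+ replicate 1 or 3, non-fluorescent replicate 1, 2, 5 or 6, or either hair cell array also ended the dct call in limma, with adjusted p up to 0.136. The csf1ra difference, not called, was -1.01 without mCherry+/GFP+ replicate 1 (limma adjusted p = 0.0282), and 10 of the 13 macrophage genes were lower in these cells. Between the 2 mantle populations none of the 10 genes was called by limma, against 26.3% of all genes. These populations come from different lines, and the mCherry+/GFP+ cells were pooled from several sorts. Population, line and pooling cannot be told apart in that contrast.

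The deposited values of the 3 h and 5 h arrays were tied to each other. In both populations the deviation of replicate 4 from its group mean at 3 h was the mirror image of that at 5 h (r = -1 over 19260 genes, which are not independent replicates). For replicates 1 to 3, r lay between -0.31 and -0.02. These arrays are therefore not fully independent, and the processing notes used here name no step that would tie them. A second fit with a block term for replicates 1, 2 and 3 at these times, called the adjustment block, is given beside each result it ends. Because the replicate 4 deviations cancel between 3 h and 5 h, this term was nearly the same for every gene. It moved the median of all genes by 0.03 in non-fluorescent and 0.04 in mCherry+ cells at 3 h and 5 h against 1 h. Differences thus kept their size, and a call it ended is no sign that an effect was removed.

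After copper, kita was higher in non-fluorescent cells at 3 h and 5 h than at 1 h. Its levels were 7.27, 7.97, 7.71 and 7.35 at 3 h, 7.27, 7.32, 6.70 and 7.48 at 5 h, and 7.22, 6.91, 6.92 and 7.12 at 11 h. At 1 h the lowest, median and highest were 4.96, 6.25 and 7.11. The arrays at 3 h lay above all arrays at 1 h, and those at 5 h and 11 h overlapped them. The rise from 1 h was 1.44 ± 0.28 at 3 h (limma, adjusted p = 0.000279) and 1.06 ± 0.28 at 5 h (adjusted p = 0.00636). In the fit with the adjustment block the 3 h call held (1.47, limma adjusted p = 0.0294) and the 5 h call did not (1.09, adjusted p = 0.128). At 11 h the difference was 0.91 ± 0.28 (adjusted p = 0.0766), and 1.07 (adjusted p = 0.0246) without 1 h replicate 7. Against untreated cells kita was higher by 1.39 ± 0.29 at 3 h (limma, adjusted p = 0.00081) and by 1.00 ± 0.29 at 5 h (adjusted p = 0.0191). Neither was called with the adjustment block, at 1.42 and 1.03 (limma adjusted p of 0.0515 and 0.256). The 5 h difference was not called without untreated replicate 3 or without 5 h replicate 1, 2 or 4, at 0.81 to 0.98 (limma adjusted p of 0.0515 to 0.0667). At 11 h the value was 0.85 ± 0.29 (adjusted p = 0.0932), and 1.00 on the deposited scale (limma, adjusted p = 0.0302).

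Of the 10 genes, 2 were higher and 1 lower at 3 h than at 1 h in non-fluorescent cells, beside 13% and 9.47% of all genes. At 5 h 3 were higher and 1 lower, beside 12.2% and 8.98%, and at 11 h none was called, against 2.17% of all genes. On the deposited scale the share of all calls that were higher moved from 57.9% to 43.2% at 3 h, from 57.7% to 43.2% at 5 h and from 63.2% to 46.3% at 11 h. For pax7a the levels were 7.11, 6.04, 7.38 and 6.12 at 3 h, 6.38, 5.75, 5.70 and 6.75 at 5 h, and 6.19, 7.47, 8.37 and 7.05 at 11 h. At 1 h they were 7.19, 7.56, 7.15, 8.27, 8.30, 8.23 and 7.08, so the 5 h arrays lay below all of the 1 h arrays. The fall from 1 h was -1.02 ± 0.35 at 3 h (limma, adjusted p = 0.0286) and -1.54 ± 0.35 at 5 h (adjusted p = 0.00139). Neither was called with the adjustment block, at -0.99 and -1.51 (limma adjusted p of 0.266 and 0.0799). The 3 h call was lost without 1 h replicate 4, 5 or 6 or 3 h replicate 2 or 4, at -0.93 to -0.82, with adjusted p in limma of 0.0555 to 0.125.

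For csf1ra the levels at 1 h were 4.23, 4.04, 4.48, 3.71, 2.97, 3.49 and 4.78, and at 5 h 4.75, 5.06, 4.73 and 4.39, with overlap. Its rise at 5 h was 0.78 ± 0.26 (limma, adjusted p = 0.0278), and 0.80 with the adjustment block (adjusted p = 0.235). That call was lost without 1 h replicate 5 or 6 or 5 h replicate 1, 2 or 3, at 0.61 to 0.78 (adjusted p of 0.0574 to 0.105). For xdh the rise was 0.44 ± 0.14 at 3 h (limma, adjusted p = 0.0179) and 0.45 ± 0.14 at 5 h (adjusted p = 0.0157), with overlapping arrays between 2.70 and 3.94. They were 0.47 and 0.48 with the adjustment block, not called (limma adjusted p of 0.171 and 0.174). The 3 h call was lost without 1 h replicate 7 or 3 h replicate 1 or 4, at 0.35 to 0.42, and the 5 h call without 5 h replicate 3, at 0.36 (adjusted p = 0.102 in limma). Leaving out single 1 h arrays added calls for csf1ra at 3 h (0.72 without replicate 7), tyr at 3 h (0.79 without replicate 4) and gch2 at 5 h (0.57 without replicate 6).

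The non-fluorescent arrays at 1 h were not alike in these genes. Replicates 4, 5 and 6 had pax7a levels of 8.23 to 8.30, against 7.08 to 7.56 in the other 4, and csf1ra levels of 2.97 to 3.71 against 4.04 to 4.78. The mean of the 13 macrophage genes was 3.46 to 4.41 in these 3 arrays and 4.50 to 5.52 in the other 4. Against untreated cells, pax7a was higher at 1 h (1.19 ± 0.31, limma adjusted p = 0.019) and csf1ra lower (-0.76 ± 0.23, adjusted p = 0.0426, and 0.0566 with the adjustment block), beside 2.4% of all genes higher and 2.58% lower. Without the 3 arrays, an alternative chosen after seeing the data, neither was called: pax7a differed by 0.75 (limma adjusted p = 0.283) and csf1ra by -0.34 (adjusted p = 0.508). Against 1 h without those arrays, kita at 3 h kept its call (1.11, adjusted p = 0.00494), while kita at 5 h was 0.73 (adjusted p = 0.0706), pax7a at 3 h -0.59 (adjusted p = 0.288) and csf1ra at 5 h 0.35 (adjusted p = 0.38, all limma). The csf1ra call at 1 h was also lost without untreated replicate 4, 5 or 6 or 1 h replicate 4, 5 or 6, each alone, at -0.80 to -0.55 (limma adjusted p of 0.0557 to 0.159). For dct a call at 1 h against untreated cells was added without 1 h replicate 7, at 0.54. Of the macrophage genes 4 of 13 were lower at 1 h than in untreated cells and 4 were higher at 3 h than at 1 h, and their part in the csf1ra values was not tested.

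Against untreated non-fluorescent cells, 1 of the 10 genes, kita, was higher at 3 h, beside 10.8% of all genes higher and 8.42% lower. At 5 h it was again kita alone, beside 6.94% and 4.73%, and at 11 h none was called, against 3.21%. Per the series' design text the copper analysis was imported apart from the baseline one. The mean over all probe sets was 4.27 to 4.30 in untreated arrays and 4.45 to 4.48 in treated non-fluorescent arrays, and treatment and import cannot be told apart in these contrasts. On the deposited scale the median of all genes shifted by 0.20 at 1 h, 0.10 at 3 h, 0.11 at 5 h and 0.14 at 11 h. The share of calls that were higher moved there from 48.3% to 91.8% at 1 h, from 56.1% to 72.3% at 3 h, from 59.5% to 78.8% at 5 h and from 62.8% to 90.8% at 11 h.

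**Figure D4:**
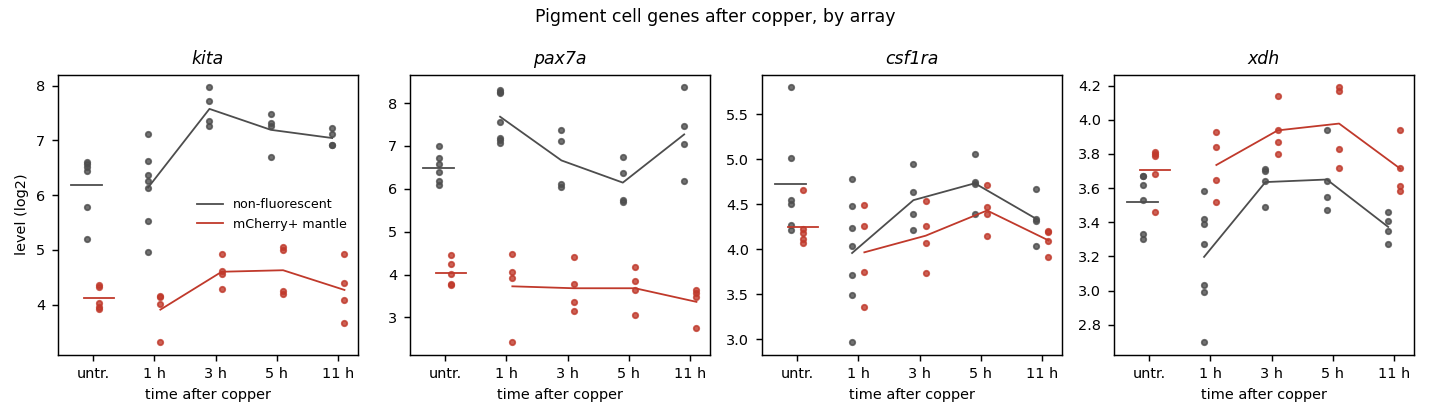
Level (log2, array medians set equal; each panel has its own axis) of kita, pax7a, csf1ra and xdh in untreated cells and at 1, 3, 5 and 11 h after copper; points are arrays and lines join group means. In non-fluorescent cells all kita arrays at 3 h, from 7.27 to 7.97, lie above those at 1 h, and the pax7a arrays at 5 h, from 5.70 to 6.75, lie below those at 1 h.

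In mCherry+ mantle cells after copper few calls were made among the 10 genes. None was called at 3 h against 1 h (13.3% of all genes) or at 11 h against 1 h (0.171%). At 5 h against 1 h mitfa was higher by 0.52 ± 0.17 (limma, adjusted p = 0.0384, and 0.244 with the adjustment block), beside 5.16% of all genes higher and 7.82% lower. Its levels were 2.54, 2.76, 3.27 and 3.24 at 1 h and 3.26, 3.41, 3.70 and 3.51 at 5 h, near the bottom of the range of this probe set. The call was lost without 1 h replicate 1 or 2 or 5 h replicate 2, 3 or 4, at 0.38 to 0.54 (limma adjusted p of 0.0561 to 0.183). Against untreated mantle cells none was called at 1 h, 3 h or 5 h, where 1.18%, 14.5% and 12.2% of all genes were. As in non-fluorescent cells, treatment and import cannot be told apart in the contrasts with untreated cells. At 11 h trpm1b was lower (-0.65 ± 0.18, limma adjusted p = 0.0349), beside 2.3% of all genes higher and 1.15% lower. On the deposited scale the share of calls that were higher moved there from 66.6% to 78.2%. The trpm1b levels at 11 h were 3.54, 3.05, 3.21 and 2.58, against 3.54 to 3.93 in untreated cells, also low in the range of this probe set. That call was lost without untreated replicate 1, 2 or 5 or 11 h replicate 2 or 4, at -0.64 to -0.47 (limma adjusted p of 0.0686 to 0.174).

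The kita levels of mCherry+ cells were 4.14, 4.01, 4.16 and 3.32 at 1 h, 4.62, 4.56, 4.93 and 4.29 at 3 h, and 5.06, 4.20, 4.25 and 5.00 at 5 h. They differed from 1 h by 0.69 ± 0.32 at 3 h (limma, adjusted p = 0.151) and by 0.72 ± 0.32 at 5 h (adjusted p = 0.135). The difference of the kita responses, mantle minus non-fluorescent, was -0.75 ± 0.43 at 3 h (limma, adjusted p = 0.263) and did not pass the test. For none of the 10 genes did the responses of the populations differ by the test, against 12.7% of all genes at 3 h and 10.5% at 5 h. At 11 h limma called 0 genes (0%), with 1874 at an unadjusted p below 0.05. The nearest of the 10 was pax7a at 5 h, with 1.49 ± 0.52 (limma, adjusted p = 0.0583). Its call appeared without 1 h replicate 1, 3 or 7, 5 h replicate 4 or 11 h replicate 1 or 3 of the non-fluorescent arrays, or mCherry+ 1 h replicate 2 or 5 h replicate 1, at 1.49 to 1.74.

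The ligands of Kit and Csf1 receptors were followed in the same arrays. Of 7 genes for ligands and the second receptors, 3 were lower in the hair cell sort than in non-fluorescent cells. The level of kitb was higher, as given above without a test. Among all genes 18% were lower. The lower ligand genes were csf1b (-2.83 ± 0.56), kitlgb (-2.24 ± 0.27) and csf1a (-2.08 ± 0.31), each with an adjusted p in limma of 0.000552 or less. The Kit ligand gene kitlga (0.05 ± 0.17) and il34, a further Csf1 receptor ligand (-0.65 ± 0.46), did not pass the test, with adjusted p of 0.848 and 0.299. Of the same 7 genes, 4 were lower and 0 higher in mCherry+/GFP+ than in non-fluorescent cells, beside 13.6% and 17.8% of all genes. In mCherry+ cells 2 were lower and 1 higher, beside 12.7% and 24.2%. The hair cell sort had 3 lower and 1 higher against mCherry+ cells, and 0 lower and 2 higher against mCherry+/GFP+ cells, kitb counted. Of all 19260 genes, 3802 and 3537 were lower in these 2 comparisons, and 3157 and 3155 higher. Low ligand genes were thus not particular to this sort.

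After copper the Kit ligand gene kitlgb was higher in mCherry+ mantle cells and lower in non-fluorescent cells at 3 h than at 1 h. In mantle cells its levels were 3.29, 2.91, 4.26 and 4.70 at 1 h, and 7.56, 5.42, 6.06 and 6.45 at 3 h. At 5 h they were 5.20, 5.10, 5.07 and 5.12, and at 11 h 6.72, 4.47, 4.22 and 4.92. Untreated mantle cells read 3.37 to 3.92. All arrays at 3 h and 5 h were above those at 1 h, and the rise was 2.58 ± 0.44 at 3 h (limma, adjusted p = 8.43e-05) and 1.34 ± 0.44 at 5 h (adjusted p = 0.0345). With the adjustment block the 3 h call held (2.62, limma adjusted p = 0.0144) and the 5 h call did not (1.37, adjusted p = 0.252). The 5 h call was also lost without 1 h replicate 1 or 2 or any one 5 h array, at 1.04 to 1.35 (limma adjusted p of 0.0604 to 0.146). The mean of 16 keratinocyte genes in mantle cells was 6.84 untreated, and 7.35, 8.53, 7.98 and 7.67 at 1 h, 3 h, 5 h and 11 h. Replicate 1 at 3 h, highest in kitlgb, also had the highest such mean, 9.34. Other arrays did not follow this order. Replicate 4 at 3 h had the lowest keratinocyte mean of that time, 7.89, with kitlgb at 6.45. At 5 h the keratinocyte means were 8.74, 7.85, 6.62 and 8.69, while kitlgb stayed between 5.07 and 5.20. In non-fluorescent cells the keratinocyte mean was 9.44 at 1 h and 9.50 at 3 h. The part of keratinocyte transcripts in the kitlgb values was not tested.

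In non-fluorescent cells kitlgb read 5.53, 5.19, 3.87 and 5.01 at 3 h and 4.43, 5.41, 6.04 and 5.23 at 5 h, against a lowest, median and highest of 5.37, 6.63 and 7.12 at 1 h. The fall was -1.48 ± 0.39 at 3 h (limma, adjusted p = 0.00458) and -1.11 ± 0.39 at 5 h (adjusted p = 0.0358), with overlapping arrays. With the adjustment block neither was called, at -1.45 and -1.08 (limma adjusted p of 0.123 and 0.296). The responses of the populations differed by 4.06 ± 0.58 at 3 h (limma, adjusted p = 1.81e-05) and by 2.44 ± 0.58 at 5 h (adjusted p = 0.00532). With the adjustment block the 3 h difference was 4.07 (limma adjusted p = 0.0122) and the 5 h difference 2.45, not called (adjusted p = 0.17). The 5 h fall in non-fluorescent cells was lost without 1 h replicate 2, 4, 5 or 7 or 5 h replicate 1, 2 or 4, at -1.15 to -0.82 (limma adjusted p of 0.0559 to 0.174).

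The gene il34 was higher in non-fluorescent cells at 3 h and 5 h after copper than at 1 h. It read 6.79, 6.54, 6.13 and 6.21 at 3 h against a lowest, median and highest of 3.97, 4.69 and 5.59 at 1 h, with no overlap and a rise of 1.67 ± 0.36 (limma, adjusted p = 0.000707). At 5 h the rise was 1.22 ± 0.36 (limma, adjusted p = 0.0118), with overlapping arrays. When the probe sets of il34 were averaged, these values became 0.87 (limma adjusted p = 0.0305) and 0.39, no longer called (adjusted p = 0.368). They were 1.70 (limma adjusted p = 0.0475) and 1.25, not called (adjusted p = 0.17), with the adjustment block. At 11 h il34 differed from 1 h by 0.21 ± 0.36 (limma, adjusted p = 0.811) and from untreated cells by 0.28 ± 0.37 (adjusted p = 0.737). At 1 h it differed from untreated cells by 0.07 ± 0.32 (limma, adjusted p = 0.934). In mCherry+ cells csf1b was lower at 3 h than at 1 h (-1.85 ± 0.49, limma adjusted p = 0.00817), without overlap, but not with the adjustment block (-1.81, adjusted p = 0.148). The kitlga levels lay between 7.10 and 9.03 in all 52 arrays, and no time against 1 h passed the test in either population.

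**Figure D5:**
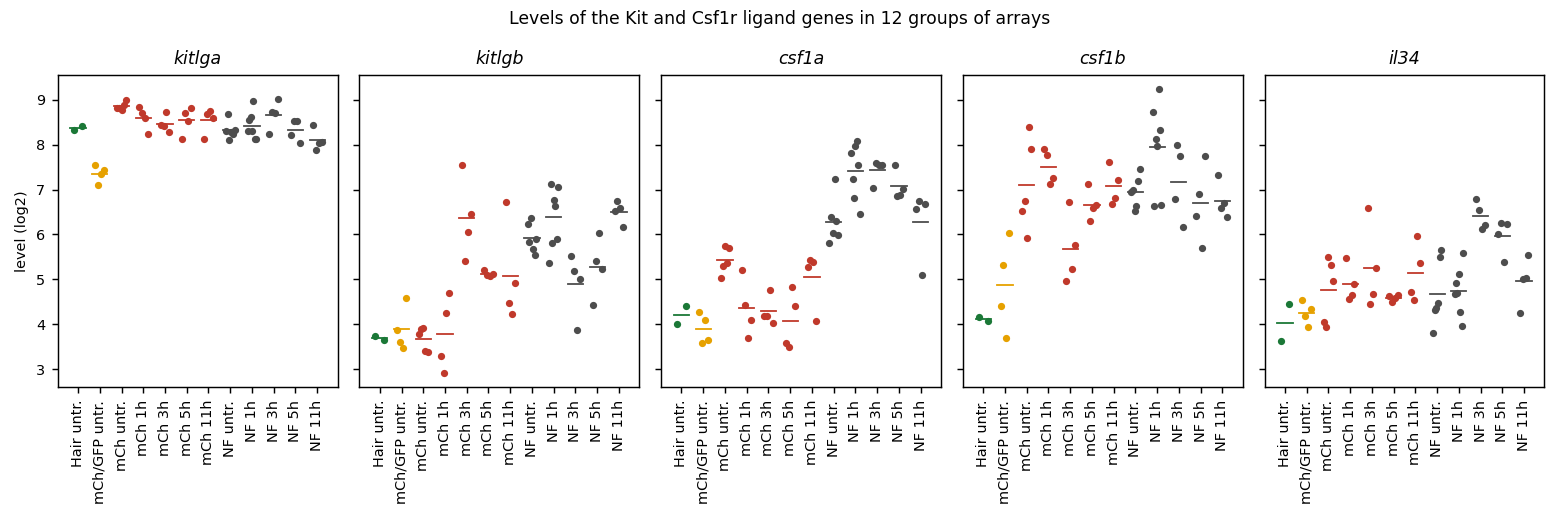
Level (log2, array medians set equal) of the Kit ligand genes kitlga and kitlgb and the Csf1 receptor ligand genes csf1a, csf1b and il34 in the 12 groups; points are arrays and bars are group means. In mCherry+ mantle cells kitlgb lies between 2.91 and 4.70 at 1 h and between 5.42 and 7.56 at 3 h after copper.

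The genes whose levels followed those of 4 of the pigment cell genes were sought among 16932 genes. Over the means of the 12 groups, the genes most like gch2 were sdr42e2 (Pearson r = 0.9981), pjvk, the gene of pejvakin (0.9978), cimip2b (0.9977), tmie, a gene of the hair cell transduction complex (0.9973), and ppp1r42 (0.9972). For kita they were echdc2 (0.97), gng12b (0.96), tmem125a (0.96), tmem108 (0.94) and emx2, a transcription factor of hair cell orientation (0.94). For mitfa they were kif17, gramd1bb, ca16b, pax2b and opn5, each at 0.99, and for tyr tektl1, stk33, kcnk7, pde4a and grid2ipb, each at 0.98. The mean of gch2 was 11.39 in the hair cell sort and between 3.19 and 3.76 in the other 11 groups. Its r over 12 groups thus rests on 1 mean, which took part in choosing the genes. Any gene high only in that sort would come near 1, so these r values for gch2 are no evidence of shared expression. Over the 11 groups without the hair cell sort, r with these same genes was 0.54 to 0.84 for gch2 and 0.92 to 0.94 for kita. It was 0.85 to 0.95 for mitfa and 0.88 to 0.94 for tyr. The genes had been picked over 12 group means that include these 11, so these values are no independent check.

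Without the hair cell arrays, and after group means were taken out, likeness was lower. Over the deviations of 50 arrays the nearest genes were slc22a7a for gch2 (r = 0.66), aqp1a.1 for kita (0.63), ccl34b.9 for mitfa (0.70) and cdh23, a hair cell cadherin, for tyr (0.73). The others were slc35g2b, ftr55, rx3 and gsg1l2b for gch2 (0.62 to 0.64), and CENPF, lrrc15, pde7a and ikzf1 for kita (0.59 to 0.60). They were ip6k2b, ccl27a, galnt13 and shtn1 for mitfa (0.62 to 0.65), and dlgap4b, sptbn5, gja2 and cntnap2a for tyr (0.67 to 0.70). Among the 45 pairs of the 10 pigment cell genes, r over these deviations had a median of 0.05 and ran from -0.42 to 0.45. Arrays of 1 import share their normalization, and these values are descriptions only.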

How the data were processed

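Per the submitters' processing notes, the authors made the deposited values with RMA and Partek 6.6. They are taken as log2 values (the base is not stated), range from -1.29 to 15.05 and have 0 missing. Per the series' design text, the authors dropped a few baseline samples that did not cluster with their group and imported the copper data on its own. Dropping samples can narrow the spread within groups, and a separate import can shift whole arrays. Of 75212 probe sets, 21661 were listed with a gene, 20806 of them with 1 symbol. From these, 19260 genes were kept by the probe set with the highest mean (1365 had more than 1). Signal over background was not used here.

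From each log2 value the array's median over tested genes was subtracted and the mean of these medians, 4.835, added, because these medians differed: 4.67 to 4.92 in untreated arrays, 4.88 to 5.14 in treated non-fluorescent arrays and 4.64 to 4.81 in treated mantle arrays. Group means were fitted for each gene in limma 3.58.1 (lmFit, eBayes) under R 4.3.3, with 17 untreated arrays in one fit and the 46 non-fluorescent and mCherry+ arrays in the other. Adjustment was by Benjamini and Hochberg's method across the genes of each comparison, with calls at an adjusted p below 0.05. The code was checked on simulated data. Values were tabulated with pandas 2.3.3 in Python 3.11.15, and figures with matplotlib 3.10.9.

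The 10 genes, the 12 lists, the tests and the rule for named genes were chosen with earlier results of these data known. The rule took the 10 genes; for gch2, kita, mitfa and tyr the 5 nearest genes by each of 2 measures; up to 4 called genes with the largest increase and 3 with the largest decrease per pigment, progenitor, ligand or macrophage list, and 2 and 2 for other lists; and 11 fixed genes. Genes named outside it were chosen after their values were seen (scarb1, gch1, spra, csf1rb, oca2, slc24a5, pmelb, pax7b). Alternatives were the deposited scale, quantile normalization, a replicate block, a block term that sets apart the arrays numbered 1, 2 and 3 in each 3 h and 5 h group (called here the adjustment block), a fit of 2 groups or of all arrays, limma's trend and robust options, weights per array, averaged probe sets, removal of dim genes (highest group mean under 5), a stricter adjusted p of 0.01, and each array left out. Same-numbered arrays showed no steady positive pairing: in 0 of 26 pairs of groups did every such pair correlate above 0.1, with r up to 0.34. Untreated non-fluorescent and mCherry+/GFP+ arrays of the same number correlated negatively in all 4 pairs, at -0.60 to -0.05. These arrays may therefore not be fully independent. Replicate 4 at 3 h and 5 h correlated at -1. Non-fluorescent and mantle arrays at the same time after copper were not compared, so pairing there was not tested. No sequence is shown and the planned motif search was not run, because no sequence source was used here.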

Additional observations from a re-analysis of the deposited data

Results flagged for a closer look

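Of 110 sets of 1 gene and 1 group of 4 to 10 arrays, 9 held an array apart from the others by Dixon's criterion, which flags about 1 in 20 by chance alone. In mCherry+/GFP+ cells, replicate 4 had a kita level of 3.46 against 4.63 to 4.84 in the others, and a mitfa level of 3.60 against 2.91 to 3.00. Replicate 2 of the same cells had a tyr level of 5.83 against 5.11 to 5.19. In untreated mCherry+ cells, replicate 4 had csf1ra at 4.66 against 4.07 to 4.22. At 11 h, mCherry+ replicate 2 had mitfa at 3.53 against 3.07 to 3.12, and at 3 h mCherry+ replicate 4 had dct at 3.88 against 4.05 to 4.09. In non-fluorescent cells dct was 4.30 in replicate 3 at 5 h against 3.80 to 3.84, and 4.66 in replicate 3 at 11 h against 3.96 to 4.02. The level of pmela was 4.32 in non-fluorescent replicate 2 at 5 h against 3.78 to 3.87.

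The response of kitlgb to copper differed between mCherry+ mantle and non-fluorescent cells by an interaction test in limma. Mantle minus non-fluorescent, the difference was 4.06 ± 0.58 for 3 h against 1 h (adjusted p = 1.81e-05) and 2.44 ± 0.58 for 5 h against 1 h (adjusted p = 0.00532). Each population had 4 arrays at each time, other than 7 non-fluorescent arrays at 1 h, and all are those described above. With the adjustment block the 5 h value was 2.45, with an adjusted p in limma of 0.17.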

How the results depend on the processing

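Of 22 calls made for the 10 genes, 4 were lost on the deposited scale, 7 with quantile normalization, 5 with the replicate block, 10 with only the groups compared, 4 with all 52 arrays in 1 fit, 2 with array weights, 1 with averaged probe sets and 12 at an adjusted p below 0.01. The adjustment block ended 10 of 13 copper calls, with values as given above. It left the size of those differences almost unchanged. Leaving out non-fluorescent 1 h arrays 4 to 6, chosen after seeing the data, ended 5 of 13. No direction was reversed in these settings, and the cause of lost calls was not tested.

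Counts of called genes moved as follows. Between mCherry+ and non-fluorescent cells 4 became 7 with array weights. Between mCherry+/GFP+ and non-fluorescent cells 5 became 3 with only the groups compared, with all 52 arrays, without dim genes and at the stricter p. Between the mantle populations 0 became 1 with the replicate block (pmela, -0.49, adjusted p = 0.0455 in limma). In non-fluorescent cells at 3 h against 1 h, 3 became 1 with quantile normalization, the adjustment block, only the groups compared and the stricter p. At 5 h against 1 h, 4 became 2 with quantile normalization, without dim genes and at the stricter p, 1 with only the groups compared and 0 with the adjustment block. At 1 h against untreated, 2 became 1 with quantile normalization, the adjustment block, only the groups compared, all 52 arrays and without dim genes, and 0 at the stricter p and without 1 h arrays 4 to 6. Against untreated, 1 became 0 at 3 h with the adjustment block and at 5 h with that block and the stricter p, and 0 became 1 at 11 h on the deposited scale. In mCherry+ cells 1 became 0 at 5 h against 1 h with quantile normalization, either block, only the groups compared, array weights, no dim genes and the stricter p, and at 11 h against untreated with only the groups compared, no dim genes and the stricter p. The 9 macrophage genes called became 2 with the replicate block, 4 without dim genes and 3 at the stricter p.

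Replicate numbers showed no steady positive pairing in the groups compared, although the replicate 4 arrays of 3 h and 5 h were mirror images. Same-numbered untreated non-fluorescent and mCherry+/GFP+ arrays correlated negatively, at -0.60 to -0.05. Pairing of the 2 populations at the same time after copper was not tested. The block by number made the gch2 difference between mCherry+ and non-fluorescent cells 0.53 (adjusted p = 0.0715 in limma). With each array left out in turn, called genes numbered 3 to 5 in both mantle contrasts with non-fluorescent cells and 0 between the mantle populations. In non-fluorescent cells they numbered 1 to 3 at 3 h, 2 to 4 at 5 h and 0 to 1 at 11 h against 1 h. Against untreated they numbered 1 to 3 at 1 h, 1 at 3 h, 0 to 1 at 5 h and 0 at 11 h. In mCherry+ cells they numbered 0 to 1 at 5 h against 1 h and at 11 h against untreated, and 0 elsewhere. Genes above all other arrays in the hair cell sort numbered 7 to 8. List calls numbered 5 to 7 for xanthophore and for purine genes, 13 to 14 for melanophore, 4 to 7 for iridophore and 3 to 10 for neural crest genes. They numbered 4 for ligands and second receptors with kitb counted, 2 to 9 for macrophage, 24 to 26 for hair cell and 5 to 6 for neuron genes. For keratinocyte genes they numbered 7 to 10, for connective tissue 15 and for Schwann cell genes 5 to 8. The hair cell sort rests on 2 arrays, and signal over background was not used here, so a low level gives no sign of whether a gene was expressed.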
